A study of Mus musculus with 14 samples.

Results

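The genes described here are the collagen chains of embryonic mouse skin epithelium: every gene of the deposited count table whose symbol is Col, a number, a and a number. The rule found 43 of the 26252 genes listed. They were grouped by the form of their protein into 11 fibrillar chains, 9 basement membrane chains, 9 fibril-associated chains (FACIT), 4 transmembrane chains, 6 beaded-filament (type VI) chains and 4 short-chain or other collagens. The samples were dorsal skin epithelia of wild-type (WT) C57BL/6JOlaHsd embryos at E14.5, when hair placodes, the epithelial thickenings that become hair follicles, have formed. An antibody to the cell adhesion molecule MAdCAM-1 divided the live cells into a positive fraction, named placode-enriched, and a negative fraction, named interfollicular epithelium (IFE). There were 7 libraries of each fraction, joined in 7 pairs by the code in their titles, and each library came from 3 to 4 pooled littermates. All samples share this genotype, strain and stage, and none was treated. The sort is on 1 surface protein, so the positive fraction is enriched for placode cells and not a pure population.

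Collagens are secreted or membrane proteins made of 3 chains that wind around each other. Each chain repeats the triplet glycine-X-Y, in which X and Y are often proline and hydroxyproline. Fibrillar collagens form the cross-striated fibrils of the dermis and FACIT collagens sit on the surface of those fibrils. Type IV collagen forms the sheet of the basement membrane under the epidermis, type VII the anchoring fibrils below it, and type XVII spans the keratinocyte membrane in the hemidesmosome. In skin, fibroblasts are the main source of fibrillar and type VI collagens, while keratinocytes make types VII and XVII.

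Library totals lay between 23.8 and 49.5 mega counts (M). Keratinocyte markers were at a summed level of 5861 to 7547 CPM (counts per M of the scaled library total) in placode-enriched and 7309 to 8852 CPM in IFE libraries, with all 6 markers counted in all 14 libraries, which matches the tissue label. Among these keratinocyte markers, 3 were higher and 3 lower in placode-enriched cells at an edgeR adjusted p under 0.05, and their sum was lower in 7 of 7 pairs. Of all tested genes, 15.5% were higher and 15.6% lower. Of 12 dermal fibroblast markers, 8 passed the low-count filter, and 5 of them passed as higher and 1 as lower in placode-enriched cells. Their sum was 1784 to 2405 CPM in placode-enriched and 1414 to 1694 CPM in IFE libraries. Dcn, Postn and Fbln1 made up most of that sum, while the mesenchymal transcription factor Prrx1 had 0 counts in 7 of 7 placode-enriched and in 2 of 7 IFE libraries. Melanoblast markers fell in placode-enriched cells, 8 of 8 tested, with sums of 8.31 to 14.6 CPM against 124 to 222 CPM, and Dct had 0 counts in 1 placode-enriched library. The endothelial sum was 1.29 to 3.86 CPM against 0.214 to 1.45 CPM, with Cdh5 at 0 in all 7 IFE and 6 placode-enriched libraries. Pecam1, the only endothelial marker tested, was higher in placode-enriched cells (log2 fold change 2.15, adjusted p = 0.00215 by edgeR). In bulk libraries, fewer cells of a type and less RNA per cell cannot be told apart. The part of these other cell types in the collagen results was not tested.

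Of the 43 collagen genes, 29 had enough counts to be tested. Of these, 6 were higher in the placode-enriched fraction at an edgeR adjusted p under 0.05 (20.7% of the 29), against 15.5% of all 15382 genes tested. Another 8 were lower (27.6%), against 15.6% of all genes. The 7 and 7 CPM values did not overlap for 9 collagen genes (31.0%), against 14.8% of all genes. The median log2 fold change of the tested collagens was 0.06, beside -0.02 for all tested genes. Col1a2, Col5a2, Col27a1, Col14a1, Col4a1 and Col17a1 were higher in the placode-enriched fraction, and Col12a1, Col16a1, Col8a1, Col6a3, Col1a1, Col4a5, Col4a6 and Col5a1 were lower. In 16 genes the mean of at least 1 fraction reached 5 CPM, and 12 of them passed the test, 6 in each direction. Of the 13 tested genes below that level, 2 passed. The share of all genes at either level that passed was not counted, so these 2 counts have no background beside them. Within the 3 pairs whose codes start with 27-7, fitted alone, 4 collagens were higher and 6 lower, and within the 4 other pairs 4 were higher and 7 lower. Of all genes, 1226 were higher and 1105 lower in the 27-7 pairs, and 1547 and 1540 in the 4 others. The numbers of genes tested in these 2 fits are not given here, so no shares are set beside the collagen counts.

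**Figure D1:**
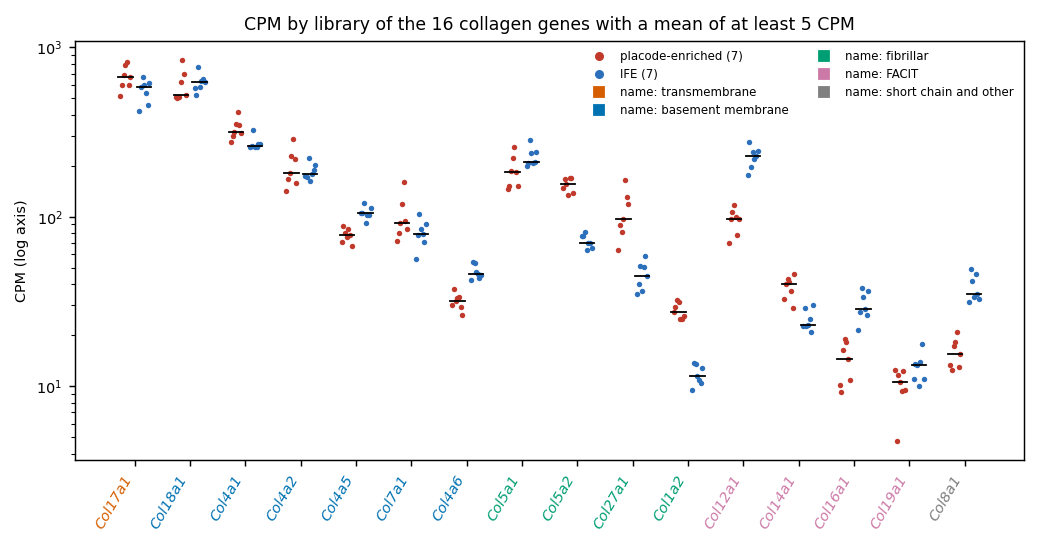
CPM (log axis) of the 16 collagen genes whose mean reached 5 CPM in at least 1 fraction, 1 point per library (red placode-enriched, blue IFE, 7 each), a black bar at the median of each fraction and gene names coloured by class. The red and blue points of Col12a1, Col16a1, Col8a1, Col5a2, Col27a1, Col1a2, Col4a5 and Col4a6 do not overlap, while those of the most abundant genes, Col17a1 and Col18a1, do.

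Levels of different genes were compared as CPM per kilobase of merged exons. On that scale, Col17a1 ranked first in both fractions, at 111 ± 17.9 in placode-enriched and 92.4 ± 15.1 in IFE libraries (mean ± SD, n = 7 each). Col18a1 followed at 85.7 ± 18.4 and 88.5 ± 10.8, with a range that overlapped that of Col17a1 in both fractions. Col4a1 came next at 44.6 ± 6.12 and 36.3 ± 3.16, below Col18a1 without overlap. In IFE its range also stood apart from that of Col4a2, at 28.1 ± 3.08, but in placode-enriched libraries the ranges of the 2 genes overlapped. Col5a1 held the fifth place in both fractions. Below it the order differed: Col5a2 was sixth in placode-enriched libraries at 16.1 ± 1.55 and ninth in IFE at 7.51 ± 0.653, whereas Col12a1 ranked at place 10 in placode-enriched libraries at 6.22 ± 1.05 and seventh in IFE at 14.8 ± 2.18. Basement membrane chains held 50.8% ± 2.65 of all collagen CPM per kilobase in placode-enriched and 52.8% ± 3.01 in IFE libraries, and transmembrane chains held 30.6% ± 2.36 and 26.6% ± 2.55. Fibrillar chains held 13.6% ± 0.488 and 11.6% ± 0.351, and FACIT chains 4.29% ± 0.570 and 7.25% ± 0.845.

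The summed CPM of all 43 collagen genes was 2158 to 3473 in placode-enriched and 2231 to 3035 in IFE libraries, higher in 3 of 7 pairs and lower in 4. The fibrillar sum was higher in the placode-enriched library in 7 of 7 pairs, with means of 485 ± 75.3 CPM and 370 ± 38.5 CPM. The transmembrane sum was also higher in 7 of 7 pairs, at 671 ± 108 and 556 ± 90.7 CPM. Nearly all of it was Col17a1, at 668 ± 108 and 555 ± 90.6 CPM, so it restates that 1 gene. The FACIT sum was lower in 7 of 7 pairs, at 158 ± 22.4 and 295 ± 37.4 CPM, and so was the type VI sum, at 2.29 ± 0.606 and 7.84 ± 3.70 CPM. The basement membrane sum, 1342 ± 255 and 1312 ± 134 CPM, was higher in 3 pairs and lower in 4. A sum is set mostly by its most abundant genes and was given no test.

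Of 6 tested basement membrane genes, Col4a1 was higher, Col4a5 and Col4a6 were lower and 3 did not pass. Col4a1 and Col4a2 encode type IV chains α1 and α2, and Col4a5 and Col4a6 encode chains α5 and α6. Each of these gene pairs lies head to head on its chromosome. Col4a1 (GRCm38 chromosome 8, 11198423 to 11312826, minus strand) was at 278, 318 and 418 CPM (lowest, median and highest library) in the placode-enriched fraction and at 257, 262 and 324 CPM in IFE. The ranges overlapped, and the placode-enriched library was higher in 6 of 7 pairs, with a log2 fold change of 0.29 ± 0.08 (approximate SE; adjusted p = 0.0199 by edgeR). Without replicate 4 or replicate 6 the edgeR adjusted p was 0.0579 and 0.0618. Col4a2 (chromosome 8, 11312805 to 11449287, plus strand) was at 141, 182 and 288 CPM against 163, 178 and 222 CPM. It was higher in 3 pairs and lower in 4, at a log2 fold change of 0.06 ± 0.12 (adjusted p = 0.787 by edgeR). The first exons of Col4a1 and Col4a2 share 22 bases on opposite strands, and this shared stretch is shown because it joins the start sites of the pair; capitals mark a GC box (GGGCGG), and the letters are from RefSeq (GRCm38.p6), plus strand.
Col4a1 and Col4a2 shared first-exon bases, chr8:11312805-11312826: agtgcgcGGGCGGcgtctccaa

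Col4a5 (chromosome X, 141475385 to 141689234, plus strand) was at 67.1, 77.6 and 87.7 CPM in placode-enriched and at 91.4, 105 and 121 CPM in IFE libraries. All 7 IFE libraries stood above all 7 placode-enriched ones, and the log2 fold change was -0.44 ± 0.08 (adjusted p = 0.000683 by edgeR). Col4a6 (chromosome X, 141165403 to 141474076, minus strand) was at 26.2, 32.0 and 37.3 CPM against 42.4, 45.9 and 54.3 CPM. Its fractions did not overlap either, with a log2 fold change of -0.59 ± 0.08 (adjusted p = 4.79e-05 by edgeR). Both genes were lower in 7 of 7 pairs. Their RefSeq start sites lie 1342 bases apart, with transcription running outward from the stretch between them. The bases before each start are shown because this pair fell together. Each stretch runs 5′ to 3′ on the strand of its gene and ends where annotated exons begin. Capitals mark a GC box (GGGCGG, or CCGCCC on the other strand) or a CCAAT box (CCAAT, or ATTGG on the other strand). A GC box 30 bases before the RefSeq start of Col4a5 lies within annotated exon bases and is not shown.
Col4a6 upstream bases, chrX:141474077-141474326, minus strand: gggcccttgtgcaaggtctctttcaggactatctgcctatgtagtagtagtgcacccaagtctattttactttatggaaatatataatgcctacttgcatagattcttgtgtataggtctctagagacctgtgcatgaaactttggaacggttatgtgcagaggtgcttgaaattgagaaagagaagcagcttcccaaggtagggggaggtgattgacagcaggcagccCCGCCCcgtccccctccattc
Col4a5 upstream bases, chrX:141475169-141475384, plus strand: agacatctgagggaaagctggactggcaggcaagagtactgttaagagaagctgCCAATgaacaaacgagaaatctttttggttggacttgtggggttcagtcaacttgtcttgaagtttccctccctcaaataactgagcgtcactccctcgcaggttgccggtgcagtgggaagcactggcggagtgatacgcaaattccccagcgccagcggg

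The other type IV chains, α3 and α4 (Col4a3 and Col4a4), had too few counts to be tested, with no library above 0.591 CPM. Col18a1, a heparan sulphate collagen of basement membranes from which endostatin is cut, was at 504, 526 and 844 CPM in placode-enriched and at 522, 624 and 762 CPM in IFE libraries. The fractions overlapped over most of their range, with a log2 fold change of -0.06 ± 0.10 (adjusted p = 0.695 by edgeR). Col7a1, the chain of the anchoring fibrils, was at 71.8, 92.1 and 161 CPM against 56.0, 79.0 and 103 CPM. Its log2 fold change of 0.29 ± 0.12 missed the threshold (adjusted p = 0.0919 by edgeR). Without pairs 2 and 3 it was 0.45 (adjusted p = 0.0214 by edgeR). That set of pairs was chosen after the data were seen, so this value does not replace the main result. Col15a1, a relative of Col18a1, was not tested, at 42 counts over all libraries.

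Of the transmembrane collagens, Col17a1 (chromosome 19, 47646344 to 47692094, minus strand), the hemidesmosomal collagen of basal keratinocytes, was at 516, 667 and 819 CPM in placode-enriched and at 419, 584 and 671 CPM in IFE libraries. The ranges overlapped, but within each of the 7 pairs the placode-enriched library was the higher. The log2 fold change was 0.27 ± 0.08 (adjusted p = 0.0207 by edgeR), and without the pair as a block the adjusted p was 0.0959. Leaving out replicate 1, 4 or 6 gave an edgeR adjusted p of 0.0532, 0.0593 and 0.0684. Col25a1, a neuronal membrane collagen, was at 0.548 to 2.48 CPM against 0.120 to 1.40 CPM and did not pass (log2 fold change 1.19 ± 0.58; edgeR adjusted p = 0.142). Col13a1 and Col23a1 had too few counts; Col13a1 was counted in 7 placode-enriched libraries, at 0.0886 to 1.82 CPM, and in 2 IFE libraries, at up to 0.300 CPM.

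Of 10 tested fibrillar genes, Col1a2, Col27a1 and Col5a2 were higher, Col1a1 and Col5a1 were lower and 5 did not pass. Col5a2 (chromosome 1, 45374321 to 45503282, minus strand), the α2 chain of type V collagen, which starts and limits the width of fibrils, was at 134, 157 and 170 CPM in placode-enriched and at 63.8, 70.4 and 80.8 CPM in IFE libraries. The lowest placode-enriched library stood well above the highest IFE library, and the log2 fold change was 1.10 ± 0.07 (adjusted p = 4.75e-08 by edgeR). Col5a1 (chromosome 2, 27886425 to 28039514, plus strand), the α1 chain of the same trimer, went the other way, at 146, 185 and 260 CPM against 200, 210 and 282 CPM. Its ranges overlapped, the placode-enriched library was lower in 6 of 7 pairs, and the log2 fold change was -0.31 ± 0.11 (adjusted p = 0.047 by edgeR). That call was close to the threshold: leaving out any 1 of replicates 1, 2, 3, 4, 6 or 7 gave an edgeR adjusted p of 0.0635 to 0.174, DESeq2 size factors gave 0.0538, and a fit without the pair as a block gave 0.0955. Col5a3, the third type V gene, had 17 counts in all.

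Col27a1 (chromosome 4, 63214004 to 63334991, plus strand), a fibrillar chain best known from cartilage, was at 63.7, 97.0 and 164 CPM in placode-enriched and at 35.2, 44.5 and 59.0 CPM in IFE libraries. The fractions did not overlap, and the log2 fold change was 1.20 ± 0.11 (adjusted p = 2.6e-06 by edgeR). The cartilage chains Col2a1, Col11a1 and Col11a2 were low in both fractions and did not pass. Col11a1 was at 1.10 to 4.90 CPM against 0.522 to 5.56 CPM, Col11a2 at 0.827 to 3.48 CPM against 0.642 to 3.00 CPM, and Col2a1 at 0 to 1.45 CPM against 0.0285 to 0.632 CPM. Of the cartilage markers, Sox9, also a regulator in hair placodes, was at 99.0 to 159 CPM against 31.7 to 55.8 CPM, whereas Acan did not pass 0.531 CPM in any library. Sox5 went the other way from Sox9, at 0 to 0.472 CPM against 0.384 to 1.70 CPM (log2 fold change -2.59, adjusted p = 0.0159 by edgeR). Hapln1 did not pass, and Acan, Matn1 and Comp had too few counts to be tested. Col24a1, a relative of Col27a1, was at 0.468 to 2.01 CPM against 0.201 to 2.23 CPM and did not pass (log2 fold change 0.68 ± 0.42; edgeR adjusted p = 0.250).

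Type I collagen, the main fibril of dermis, is built of α1 chains from Col1a1 and an α2 chain from Col1a2. Col1a2 (chromosome 6, 4504814 to 4541544, plus strand) was at 24.8, 27.6 and 32.2 CPM in placode-enriched and at 9.50, 11.5 and 13.7 CPM in IFE libraries. The values were tight within each fraction and did not overlap, with a log2 fold change of 1.25 ± 0.09 (adjusted p = 3.05e-07 by edgeR). Col1a1 (chromosome 11, 94936224 to 94953042, plus strand) was at 0.127, 0.519 and 1.005 CPM in placode-enriched and at 0, 2.896 and 10.99 CPM in IFE libraries. The placode-enriched libraries were all low, while the IFE libraries spread from no count at all to 385 counts. The log2 fold change was -2.49 ± 0.85 (adjusted p = 0.0395 by edgeR), and it was -1.53 without pairs 2 and 3 (adjusted p = 0.325 by edgeR). Those pairs were left out after the data were seen and hold the highest IFE values of Col1a1. The smaller difference without them is therefore no separate check of Col1a1. Leaving out any 1 of replicates 2, 3, 4, 6 or 7 gave an edgeR adjusted p of 0.0921 to 0.136, and testing without the low-count filter gave 0.216. Per kilobase, the ratio of Col1a1 to Col1a2 had a median of 0.0322 in placode-enriched libraries (0.0108 to 0.0703) and 0.477 in IFE (0.00425 to 1.52). The low end in IFE comes from the library with no Col1a1 count and rests on an added count of 0.5.

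Fibrillar chains are encoded by many exons of 54 bases, most of which hold 6 triplets that start with glycine. All such exons did so in Col1a1, Col5a1 and Col5a2, as did 23 of 24 in Col1a2 and 32 of 33 in Col27a1. A 54-base exon of each of 5 chains is shown because these chains share this unit and yet moved differently; coordinates are GRCm38, each runs 5′ to 3′ on the strand of its gene, and capitals mark the GG of the glycine codons, which recur every 9 bases.
Col1a1, chr11:94939904-94939957: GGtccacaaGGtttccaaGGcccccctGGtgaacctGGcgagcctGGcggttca
Col1a2, chr6:4515481-4515534: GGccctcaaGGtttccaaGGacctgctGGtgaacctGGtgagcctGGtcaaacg
Col5a1, chr2:27965251-27965304: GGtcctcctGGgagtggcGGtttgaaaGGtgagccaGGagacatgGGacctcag
Col5a2, chr1:45434892-45434945: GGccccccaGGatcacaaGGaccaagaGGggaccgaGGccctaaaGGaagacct
Col27a1, chr4:63231792-63231845: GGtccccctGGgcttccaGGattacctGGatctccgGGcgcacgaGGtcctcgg
Of 627 internal coding exons of the 11 fibrillar genes, 48.6% were of exactly 54 bases and 83.9% of a length divisible by 9. The second share was 70.7% in transmembrane, 55.1% in FACIT, 54.4% in type VI, 50.1% in basement membrane and 30.2% in short-chain and other genes, beside 14.3% of internal coding exons of all protein-coding genes.

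Because 2 chains of 1 collagen type are counted in the same library, their ratio does not depend on how libraries are scaled. The log2 ratio of counts was compared between the fractions for the 6 of 9 listed chain pairs in which both genes were tested (counts plus 0.5; exact two-sided sign-flip test over 7 pairs, smallest possible p 0.0156; Benjamini-Hochberg over 6). Col5a1 over Col5a2 was lower in the placode-enriched fraction by -1.40 ± 0.27 log2 (mean ± SD, n = 7), in 7 of 7 pairs (exact p = 0.0156, adjusted 0.0469). Per kilobase the median ratio was 1.24 in placode-enriched and 3.36 in IFE libraries, and the ranges, 1.02 to 1.88 and 2.96 to 4.19, did not overlap. Col8a1 over Col8a2, the chains of type VIII collagen, was lower by -2.51 ± 1.03 log2 in 7 of 7 pairs (exact p = 0.0156, adjusted 0.0469). This ratio rests on low counts of Col8a2, which did not pass 1.31 CPM in any library. Col1a1 over Col1a2 was lower in 6 of 7 pairs, by -3.05 ± 3.43 log2 (exact p = 0.0625, adjusted 0.075). Its SD exceeded its mean, as the IFE libraries differed so widely in Col1a1. In IFE replicate 1, which had no Col1a1 count, the ratio rests on the added 0.5. The 2 type IV ratios moved little: Col4a1 over Col4a2 differed by 0.23 ± 0.22 log2 and Col4a5 over Col4a6 by 0.14 ± 0.12 log2, each higher in 6 of 7 pairs (exact p = 0.0469, adjusted 0.0703, for both). Col11a1 over Col11a2 differed by 0.54 ± 1.53 log2 (exact p = 0.391).

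**Figure D2:**
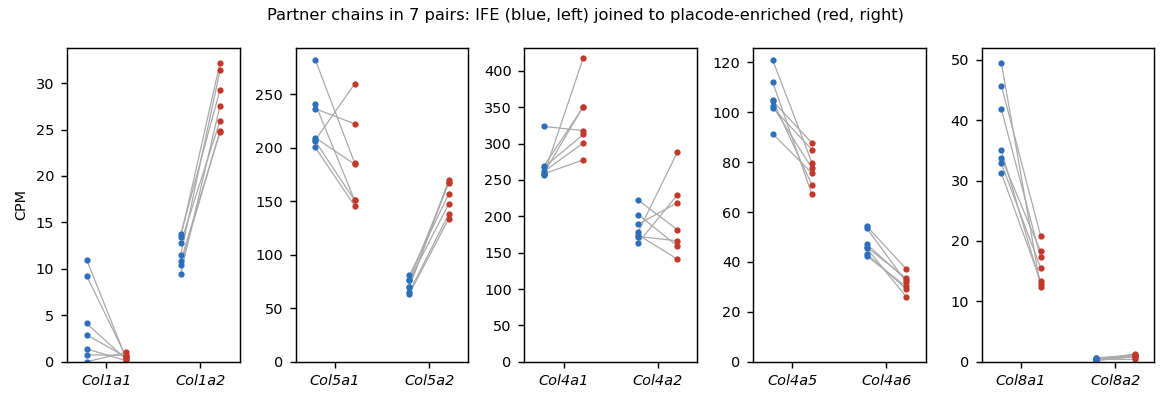
CPM of partner chains, with the IFE library (blue) joined to the placode-enriched library (red) of the same pair; each panel has its own CPM axis from 0. All 7 lines of Col1a2 and Col5a2 rise and all 7 of Col4a5, Col4a6 and Col8a1 fall, while those of Col5a1 mostly fall and those of Col4a1 mostly rise.

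Col1a1 varied among the IFE libraries together with other collagens of fibroblasts. It was at 10.99 CPM in IFE replicate 2 and 9.25 CPM in replicate 3, and between 0 and 4.12 CPM in the 5 other IFE libraries. Col3a1, the type III chain found beside type I in dermis, was at 11.2 CPM in IFE replicate 2, 7.21 CPM in replicate 3 and 7.16 CPM in replicate 7, and at 2.11 to 3.86 CPM in placode-enriched libraries. The fractions overlapped, with a log2 fold change of -0.30 ± 0.36 (adjusted p = 0.586 by edgeR). Col6a1, a type VI chain, had 95 and 75 counts in IFE replicates 2 and 3 and 0 counts in 5 of 7 placode-enriched libraries, but missed the low-count filter. Col6a2, its partner, was at 0 to 3.23 CPM in IFE and 0.156 to 0.925 CPM in placode-enriched libraries (log2 fold change -0.73 ± 0.87; edgeR adjusted p = 0.585). The fibroblast factor Prrx1 was highest in the same IFE libraries, at 0.657 CPM in replicate 2 and 0.972 CPM in replicate 3, with 0 counts in replicates 1 and 5. Twist2, another such factor, was at 0.571 and 0.168 CPM there and at 0.254 CPM in replicate 4. Lum and Pdgfra, also among the 12 markers, were likewise highest among IFE libraries in replicates 2 and 3. Lum was at 2.20 CPM in replicate 2 and 2.62 CPM in replicate 3, and Pdgfra at 0.771 and 0.704 CPM. Others differed: Tbx15 was highest in IFE replicate 1, at 1.07 CPM. The sum of all 12 markers, most of it Dcn, Postn and Fbln1, was lowest in IFE replicate 3, at 1414 CPM. The markers named here were chosen after their values were seen. The part of fibroblasts in these values was not tested. Col1a2 spread less over the IFE libraries, from 9.50 CPM in replicate 1, which had no Col1a1 count, to 13.4 and 13.7 CPM in replicates 3 and 2, where Col1a1 was highest.

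**Figure D3:**
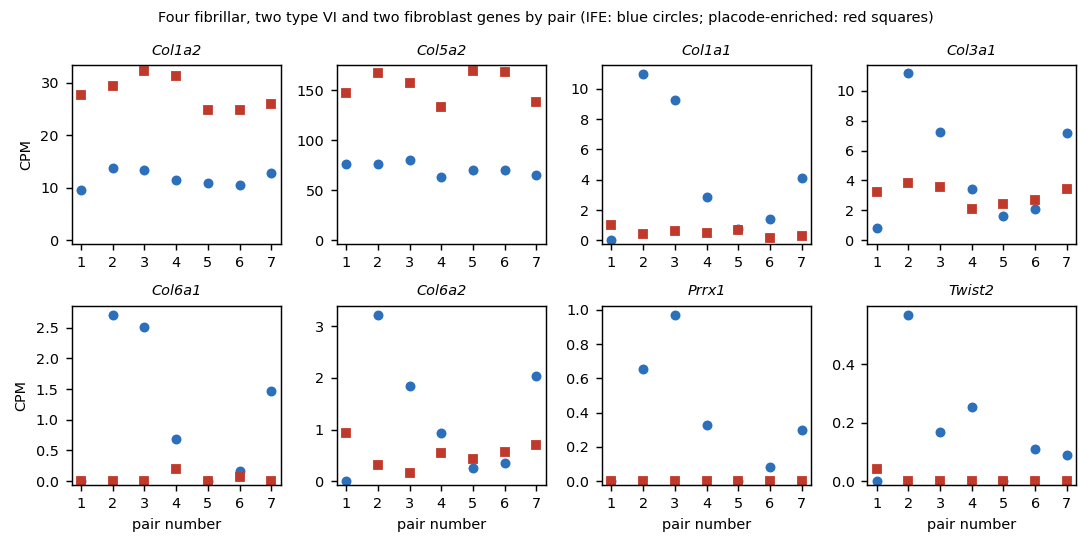
CPM by pair number (blue circles IFE, red squares placode-enriched) for Col1a2, Col5a2, Col1a1, Col3a1, Col6a1, Col6a2 and the fibroblast transcription factors Prrx1 and Twist2, each panel on its own axis; pair numbers have no order. The IFE values of Col1a1, Col6a1 and Prrx1 are highest in pairs 2 and 3. Those of Col1a2 are also highest there, at 13.7 CPM in pair 2 and 13.4 CPM in pair 3, within a narrower range that lies below every placode-enriched library.

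Col6a3, the third main type VI chain, was at 0.683, 1.37 and 2.18 CPM in placode-enriched and at 2.53, 4.67 and 9.02 CPM in IFE libraries. The fractions did not overlap, and the log2 fold change was -1.78 ± 0.30 (adjusted p = 0.000483 by edgeR). Unlike Col6a1, it was counted in all 14 libraries and was at 3.89 CPM in IFE replicate 1, which held no Col1a1, Col6a1 or Col6a2 count. Of the other type VI genes, Col6a6 had counts in 7 IFE libraries (0.0285 to 1.24 CPM) and in 1 placode-enriched library (0.276 CPM), and Col6a4 and Col6a5 reached at most 0.449 and 0.143 CPM in any library. None of these was tested.

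Among FACIT collagens, Col12a1 (chromosome 9, 79598991 to 79718831, minus strand), which binds the surface of type I fibrils, was at 70.0, 97.1 and 117 CPM in placode-enriched and at 175, 228 and 278 CPM in IFE libraries. All IFE libraries stood above all placode-enriched ones, with a log2 fold change of -1.26 ± 0.09 (adjusted p = 1.43e-07 by edgeR). Col16a1 (chromosome 4, 130047840 to 130099283, plus strand), which is found near the dermal-epidermal junction, was at 9.21, 14.4 and 19.0 CPM against 21.5, 28.6 and 38.1 CPM. It also did not overlap, at a log2 fold change of -1.13 ± 0.13 (adjusted p = 1.85e-05 by edgeR). Col14a1 (chromosome 15, 55307750 to 55520803, plus strand), a close relative of Col12a1, went the opposite way, at 29.0, 40.3 and 45.9 CPM against 20.7, 22.9 and 30.1 CPM. The ranges overlapped narrowly, the placode-enriched library was higher in 7 of 7 pairs, and the log2 fold change was 0.63 ± 0.08 (adjusted p = 6.54e-05 by edgeR). Col19a1 was at 4.76, 10.5 and 12.4 CPM against 10.1, 13.2 and 17.7 CPM and did not pass (log2 fold change -0.38 ± 0.17; edgeR adjusted p = 0.122). The type IX chains were near 0: Col9a3 lay at 0.0804 to 0.683 CPM against 0 to 0.485 CPM and did not pass, and Col9a1 and Col9a2 had 7 and 29 counts in all. Col9a3 shares 234 exon bases with Tcfl5 on the other strand, so its reads are uncertain without the strand setting. Col20a1 was at 0.0394 to 1.496 CPM against 0.0428 to 1.32 CPM and did not pass, and Col22a1 was not tested.

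Col8a1 (chromosome 16, 57624258 to 57754737, minus strand), a short-chain collagen that forms hexagonal networks, was at 12.4, 15.6 and 20.9 CPM in placode-enriched and at 31.2, 35.0 and 49.5 CPM in IFE libraries. The fractions did not overlap, and the log2 fold change was -1.29 ± 0.12 (adjusted p = 2.34e-06 by edgeR). Col8a2, its partner, was low in both fractions, at 0.380, 0.886 and 1.31 CPM against 0.171, 0.428 and 0.635 CPM. It was higher in 6 of 7 pairs, at a log2 fold change of 1.22 ± 0.47 that missed the threshold (adjusted p = 0.0646 by edgeR). It passed without the pair as a block (adjusted p = 0.0261), without replicate 6 (0.0468) and with DESeq2 (0.0278). Col26a1 did not pass, at 0.0781 to 2.44 CPM against 0 to 0.971 CPM, and Col28a1 had 4 counts in all. The 14 genes that were not tested had 4 to 261 counts over the 14 libraries and at most 2.71 CPM in any library.

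**Figure D4:**
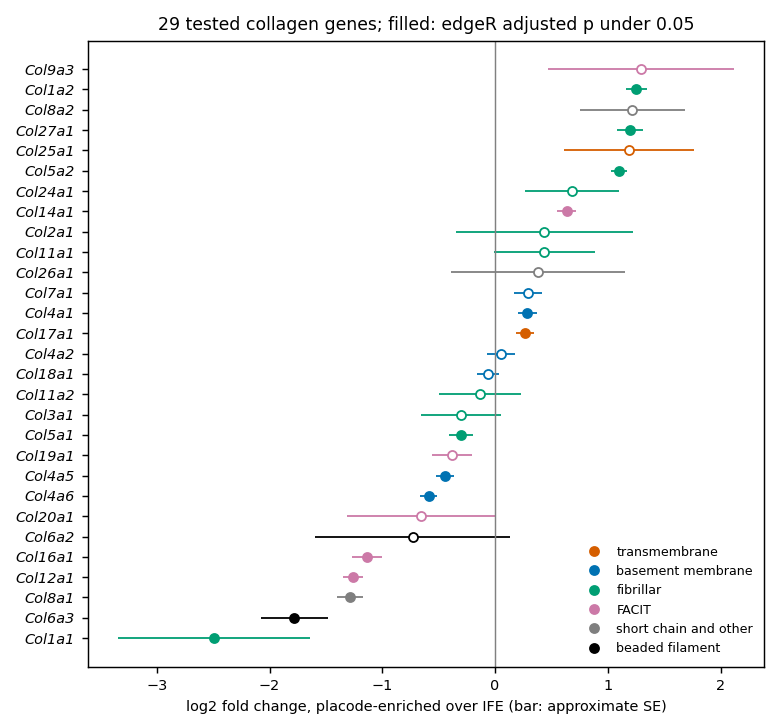
The log2 fold change (placode-enriched over IFE) of the 29 tested collagen genes with its approximate SE, coloured by class; filled circles have an edgeR adjusted p under 0.05. The 6 filled circles to the right of 0 lie between 0.27 and 1.25, and the 8 to the left between -0.31 and -2.49.

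Neighbouring collagen genes did not always move together. Col3a1 and Col5a2 lie tail to tail 24614 bases apart on chromosome 1; Col5a2 rose, whereas Col3a1 had a log2 fold change of -0.30 and did not pass. The sequence before the start site was available from RefSeq (GRCm38.p6) for 34 of the 43 genes, in 37 windows of 250 bases before to 50 after the start. On either strand, the GC box GGGCGG occurred in 62.2% of these windows and in 35.7% of 32851 windows of all genes. The CCAAT box was in 35.1% and 37.4%, and TATAAA in 10.8% and 13.6%. As an example of a gene that rose and of one that fell, the last 100 bases before the start are shown for Col27a1 and Col8a1, with GC boxes on either strand in capitals. A match describes the letters only.
Col27a1, chr4:63215312-63215411, plus strand: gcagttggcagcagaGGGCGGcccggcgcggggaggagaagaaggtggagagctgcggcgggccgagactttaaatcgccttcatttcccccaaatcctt
Col8a1, chr16:57754738-57754837, minus strand: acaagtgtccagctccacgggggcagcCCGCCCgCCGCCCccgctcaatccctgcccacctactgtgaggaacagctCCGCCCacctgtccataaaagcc

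Genes that make, process, bind or degrade collagen were counted in lists beside the collagen chains; of all tested genes, 15.5% were higher and 15.6% lower. Of 13 tested enzymes of chain hydroxylation and glycosylation, 5 were higher, 4 lower and 4 did not pass. Plod1, a lysyl hydroxylase, rose from 6.06 to 9.96 CPM in IFE to 16.98 to 26.6 CPM in placode-enriched libraries (log2 fold change 1.38 ± 0.10; edgeR adjusted p = 2.72e-07). P3h2, the prolyl 3-hydroxylase that acts on type IV chains, fell from 49.8 to 66.3 CPM to 21.5 to 31.1 CPM (-1.10 ± 0.08; edgeR adjusted p = 2.49e-07). P3h3 and P4ha1 were higher by 0.89 and 0.53 log2. Of 10 genes for folding and secretion, 1 was higher, 4 lower and 5 did not pass. The higher one was Serpinh1, the collagen chaperone Hsp47, at 362, 390 and 474 CPM against 238, 248 and 297 CPM, without overlap (log2 fold change 0.65 ± 0.07; edgeR adjusted p = 1.64e-05). Mia2, an export receptor at the endoplasmic reticulum, Sparc, a collagen-binding matrix protein, Sec23a, a coat protein of export vesicles, and Creb3l1, a transcription factor of secretory cells, were lower by -0.29, -0.24, -0.35 and -0.57 log2.

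Among 10 tested genes of propeptide cleavage and cross-linking, 5 were higher, 1 was lower and 4 did not pass, with a median log2 fold change of 0.66 beside -0.02 for all genes. Pxdn, the peroxidasin that forms the sulfilimine cross-links of type IV collagen, was at 224, 304 and 381 CPM in placode-enriched and 84.4, 102 and 119 CPM in IFE libraries (1.52 ± 0.08; edgeR adjusted p = 7.18e-09). Tll1 and Bmp1, proteases that remove C-propeptides, were at 11.4 to 21.8 CPM against 0.361 to 0.945 CPM and at 44.0 to 58.3 CPM against 16.9 to 24.9 CPM, log2 fold changes of 4.71 and 1.27. Adamts3, a protease for N-propeptides, was at 3.54 to 7.50 CPM against 0.134 to 0.917 CPM (3.63 ± 0.32; edgeR adjusted p = 1.35e-06). These 4 genes were picked by their small p in this comparison. None of them overlapped between the fractions, and 14.8% of all tested genes did not overlap either. Loxl3, a lysyl oxidase, was the lower gene, at 0 to 0.281 CPM against 0.879 to 1.70 CPM.

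Of 7 tested collagen receptors, 3 were lower and none higher, beside 15.6% and 15.5% of all tested genes. The lower ones were the integrin chains Itga1 (-0.86 ± 0.17; edgeR adjusted p = 0.00141) and Itga2 (-0.25 ± 0.09; edgeR adjusted p = 0.04997) and the adhesion receptor Adgrg6 (-1.10 ± 0.21; edgeR adjusted p = 0.00149). Among partners of Col17a1 and Col7a1 in the hemidesmosome and its anchorage, Lamb3, a laminin chain of the epidermal basement membrane, was at 80.3 to 116 CPM against 46.8 to 68.0 CPM, without overlap (0.68 ± 0.08; edgeR adjusted p = 2.03e-05). The plakins Plec and Dst and the integrin chain Itgb4 were lower, at log2 fold changes of -0.59, -0.51 and -0.28. Of 8 genes of collagen degradation and shedding, 3 were higher, 4 lower and 1 did not pass, beside the same shares of all tested genes. The gelatinases moved in opposite directions: Mmp9 was at 8.94 to 14.3 CPM against 0.171 to 1.02 CPM (4.23 ± 0.24; edgeR adjusted p = 2.25e-08) and Mmp2 at 27.1 to 37.9 CPM against 56.1 to 75.8 CPM (-1.02 ± 0.09; edgeR adjusted p = 1.15e-06). Mmp14, the membrane protease that cuts fibrillar collagen, and Furin, a proprotein convertase, were higher by 0.67 and 0.49 log2.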

How the data were processed

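RNA-seq libraries from 7 placode-enriched and 7 IFE pools were analysed. The deposited values are whole-number read counts for each Ensembl gene, with no scaling by the authors visible in them. Per the labels' protocols, the sorted cells went straight into lysis reagent and the Ovation SoLo kit made the libraries. The submitters' processing notes name STAR (given there as version 1.5) and HTSeq, with bcl2fastq 2.17.1.14, Trimmomatic and quality reports, on GRCm38 and mm10. Which annotation release, strand setting and molecular identifiers were used is not given in the sources used here. Reads amplified from 1 molecule are not independent, so depth covers counting error only, and genes that overlap on opposite strands can share reads.

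Symbols, exon lengths and overlaps came from GENCODE release M21 (GRCm38), which matched 25949 of 26252 identifiers. Unmatched were 303, with 0.436% of counts. GENCODE has 44 symbols of the collagen rule, of which 43 were in the table and 1 was not analysed here. The collagen genes and all lists were chosen with earlier results of these data known. All tested collagens are named, and of each partner list up to 4 genes past the threshold with the smallest p. Creb3l1, Itgb4 and Loxl3 are named beyond these. All partner genes named were thus chosen after their values were seen. Of the partner lists, 1 gene is not reported here.

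The main test was the robust quasi-likelihood F test of edgeR (version 4.0.16, in R 4.3.3 with limma 3.58.1), with the pair as a blocking factor. After filterByExpr 15382 genes remained and 10870 were dropped, and TMM set the library scaling. Benjamini-Hochberg adjustment at 0.05 ran over all genes tested. Fold changes carry a prior count of 0.125, and the approximate SE divides the unshrunk coefficient by the root of F. CPM were taken on TMM-scaled totals. Per-kilobase values divide by all merged exons of a gene, so long alternative exons lower them. Tables and plots were made in Python 3.11.15 (pandas 2.3.3, numpy 2.4.6, matplotlib 3.10.9).

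The pairing comes from the labels, which give both libraries of a title code as pooled littermates. Across all tested genes, deviations from the fraction means (log2 of CPM plus 1) correlated within pairs by 0.093 on average (-0.317 to 0.395, over 0.1 in 4 of 7 pairs). Whether the 3 codes starting with 27-7 share a litter or a day is not in the labels, and p-values therefore reflect only how these pools differ among themselves. The alternatives were a fit without the pair block, other scalings and filters, DESeq2 1.42.0, limma-voom, 1 pair left out at a time, each group of pairs on its own, a threshold of 0.01 and other added counts. Leaving out pairs 2 and 3 was added after the data were seen. The fit was tested on simulated data, and the sign-flip test on fixed values with known answers.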

Additional observations from a re-analysis of the deposited data

Results flagged for a closer look

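Of 58 groups of 7 libraries, 1 for each tested collagen and fraction, 4 held a library far from its neighbours by Dixon's test at a critical value of 0.568, where chance gives about 1 in 20. Col19a1 was lowest in placode-enriched replicate 2, at 4.76 CPM, with the next library at 9.33 CPM. Col26a1 was highest in the same library, at 2.44 CPM, with the next at 1.004 CPM. Col4a1 was highest in IFE replicate 3, at 324 CPM, with the next at 269 CPM. Col6a3 was highest in IFE replicate 3 too, at 9.02 CPM, with the next at 5.26 CPM; this library was also among the highest for Col1a1 and Prrx1.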

How the results depend on the processing

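Of the 29 tested collagens, 13 were under 5 CPM in both fractions, and 2 of them passed; the part of depth in this was not tested. Of 507 values of collagen genes under the alternatives, 454 kept their direction and their side of the threshold, 31 lost the call, 6 gained one and 16 changed direction. Of the 14 genes called, 10 kept their call and direction in each alternative other than the 2 sets of pairs fitted alone; Col17a1, Col1a1, Col4a1 and Col5a1 did not. Counts of collagens higher and lower stayed within 1.5 times the main counts in every alternative run.

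Without the replicate block, 4689 genes passed against 4786 with the pairing, and 6 collagens were higher and 7 lower. The count of all genes was 2331 in the 3 pairs coded 27-7 and 3087 in the 4 others, with fewer samples, and 4432 without pairs 2 and 3, where 7 collagens were higher and 6 lower. The 16 changes of direction were in genes that did not pass. In the 4 other pairs alone the values were -0.42 for Col11a1, -0.74 for Col26a1 and -0.042 for Col4a2. In the 27-7 pairs alone they were 0.19 for Col11a2 and 0.090 for Col18a1. Without pairs 2 and 3 they were 0.14 for Col11a2, 0.052 for Col18a1, 0.16 for Col3a1 and 0.39 for Col6a2. With 1 replicate left out, Col11a2 lay between -0.43 and 0.043, Col18a1 between -0.14 and 0.023, Col26a1 between -0.074 and 0.89, Col2a1 between -0.041 and 0.94, and Col4a2 between -0.052 and 0.14. The cause was not tested.

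For the chain ratios (exact sign-flip tests), the smallest p that 3 or 4 pairs allow lies above the threshold, and with 6 pairs only the set without replicate 1 gave calls after adjustment. Col5a1 over Col5a2 lay between -1.48 and -1.35 with 1 pair left out, at -1.38 in the 27-7 pairs and at -1.42 in the others. Col8a1 over Col8a2 lay between -2.72 and -2.32, and at -1.80 and -3.04 in these sets. Col1a1 over Col1a2 lay between -4.23 and -2.60 and passed without replicate 1 (-4.23) and, without the replicate block, at -3.05. Col4a1 over Col4a2 lay between 0.17 and 0.28 and passed without the replicate block at 0.23. Col4a5 over Col4a6 lay between 0.12 and 0.18 and passed without replicate 1. Col11a1 over Col11a2 turned to -0.093 in the 4 other pairs.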
